A study of Mus musculus with 23 samples.

Results

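The 10 genes described here encode transcription factors that neurons induce as immediate early genes: Fos, Fosb, Junb, Egr1, Egr2, Egr3, Egr4, Npas4, Nr4a1 and Nr4a2. They were chosen by symbol, each matched to 1 Ensembl gene of the deposited table, and are 10 of its 45706 genes. All 10 passed the filter on low counts, which kept 18823 genes. They were measured in polyadenylated RNA of mouse hippocampal neurons in 23 libraries of 6 groups, from 3 populations named CamK, Grik and SST. CamK and Grik libraries were labelled as pyramidal excitatory cells and SST libraries as interneurons that express somatostatin, and the study set CA1, CA3 and somatostatin-positive populations side by side. Each population had wild-type (WT) libraries and libraries labelled as a conditional knockout (cKO) of Slm2, the splicing regulator encoded by Khdrbs3. There were 4 CamK WT, 3 CamK cKO, 4 Grik WT, 4 Grik cKO, 4 SST WT and 4 SST cKO libraries. The recombinase driver behind each population name, the deleted exons, the method of isolating the cells, any stimulation of the animals and their age are not stated in the labels used here. Nothing in the labels says whether replicate libraries came from separate animals, so p-values measure the spread between libraries, part of which may be technical.

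Immediate early genes are transcribed within minutes of synaptic activity, from promoters already loaded with factors such as CREB and SRF, and without new protein synthesis. FOS and FOSB pair with JUN-family proteins such as JUNB to form AP-1. The EGR proteins are zinc-finger factors, several of which are held in check by the corepressors NAB1 and NAB2. NPAS4 pairs with ARNT-type partners, and NR4A1 and NR4A2 are orphan nuclear receptors. In the hippocampus these genes serve as markers of recently active neurons, and their own targets include Arc and Bdnf.

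The promoters of 3 members are shown because they hold motifs of known inducible promoters and because Fos and the NR4A genes stood in a different order among the populations. RefSeq gave a promoter in build GRCm38.p6 for 8 of the 10 members, and Egr1 and Egr3 were not searched. Each line gives the 250 bases before the start of transcription, 5′ to 3′ on the gene's strand. Capitals mark the letters TGACG, the core of the cAMP response element (CRE) bound by CREB, on either strand, and in Fos also TATAAA. Fos lies at chr12:85473640-85473889 on the plus strand, Nr4a1 at chr15:101266596-101266845 on the plus strand and Nr4a2 at chr2:57124004-57124253 on the minus strand, and the Nr4a1 start used here lies inside the annotated gene.
Fos: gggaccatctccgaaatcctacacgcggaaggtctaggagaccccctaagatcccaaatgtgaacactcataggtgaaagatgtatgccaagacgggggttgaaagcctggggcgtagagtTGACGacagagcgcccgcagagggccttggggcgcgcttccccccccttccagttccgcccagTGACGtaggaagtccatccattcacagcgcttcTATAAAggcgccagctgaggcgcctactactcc
Nr4a1: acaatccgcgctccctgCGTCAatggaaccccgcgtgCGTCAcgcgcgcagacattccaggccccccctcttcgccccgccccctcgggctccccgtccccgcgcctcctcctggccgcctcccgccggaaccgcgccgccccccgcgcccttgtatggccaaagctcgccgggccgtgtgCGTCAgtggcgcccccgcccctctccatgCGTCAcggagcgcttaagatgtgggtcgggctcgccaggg
Nr4a2: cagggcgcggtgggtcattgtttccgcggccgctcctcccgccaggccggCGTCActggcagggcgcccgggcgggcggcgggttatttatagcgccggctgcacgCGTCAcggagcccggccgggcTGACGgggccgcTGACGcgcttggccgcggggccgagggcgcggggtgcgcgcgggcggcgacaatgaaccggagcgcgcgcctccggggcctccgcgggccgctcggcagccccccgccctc

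The TGACG core began 129 and 66 bases before the start of Fos, 233, 213, 69 and 40 bases before that of Nr4a1, and 200, 144, 123 and 111 bases before that of Nr4a2. All 8 members searched held at least 1 such core within 250 bases of a start, for Egr2 at 3 of its 5 starts. Of all 32817 promoter windows of this length, 17.7% held it. The share over all promoters was not matched for base composition. None of the member windows searched held the full palindrome TGACGTCA, which 1.55% of all windows held. A CArG box, the motif of SRF, was matched in Egr2 alone among these 8 members and in 1.47% of all windows. TATAAA, searched on the gene's strand, lay 33 bases before the start of Fos and in none of the other 7 members searched, against 7.60% of all windows. The AP-1 motif TGANTCA, the EGR motif GCGTGGGCG and the NR4A motif AAAGGTCA were matched in none of these windows and in 6.75%, 0.536% and 1.34% of all windows. These matches describe letters in a window, not bound sites.

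Gene counts summed to 87612006 reads in the shallowest library and 112993538 in the deepest, and replicate libraries differed from each other by more than sampling noise. The population labels were met by marker genes. Wfs1, a CA1 marker, averaged 356 CPM (reads scaled to the library total times its TMM factor) in CamK WT, against 24.7 in Grik WT, and Grik4, a CA3 marker, averaged 30.3 and 132. Gad1, a GABAergic marker, averaged 2764 CPM in SST WT and at most 66.8 in any CamK or Grik group. Somatostatin itself was uneven in SST WT, at 1720, 159, 554 and 1557 CPM in replicates 1, 2, 3 and 5, beside 1010 to 2125 CPM in the libraries labelled SST cKO and at most 10.6 CPM elsewhere. The targeted gene Khdrbs3 averaged 278 ± 25.1 CPM (SD, n = 3) in the libraries labelled CamK cKO and 373 ± 27.0 (n = 4) in CamK WT, and 93.8 ± 10.5 and 130 ± 8.31 (n = 4 each) in SST. In Grik it went against the label, at 414 ± 18 CPM in the libraries labelled cKO and 336 ± 8.61 in WT (SD, n = 4 each), without overlap. The count is over the whole gene and does not measure the deleted sequence. Throughout, cKO is therefore a label only, also where it names a single library or a comparison.

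In wild-type neurons, 8 of the 10 genes were higher in CamK than in SST, 7 were higher in Grik than in SST and 5 were higher in CamK than in Grik, where 29.5%, 28.1% and 20.9% of all genes were. Of the 5, Junb, Egr1 and Egr4 no longer passed once a score of glial and vessel markers, which differed between these populations, was a covariate. Their estimates remained positive and are given with the markers below, that of Egr1 being nearly unchanged. The values of 7, 7 and 6 members did not overlap in these comparisons, where 53.9%, 52.3% and 38.3% of all genes did not overlap. Nr4a2 and Egr3 differed most, 13.5-fold and 9.91-fold between CamK and SST. Fos stood at a higher mean in SST than in either pyramidal population. It was called 2.57-fold higher in SST than in Grik, a call lost in limma-voom (log2 fold change -0.73, adjusted p = 0.204) and without any 1 of 7 of the 8 libraries. In bulk RNA, fewer cells that express a gene and less of its RNA in each cell cannot be told apart.

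**Figure D1:**
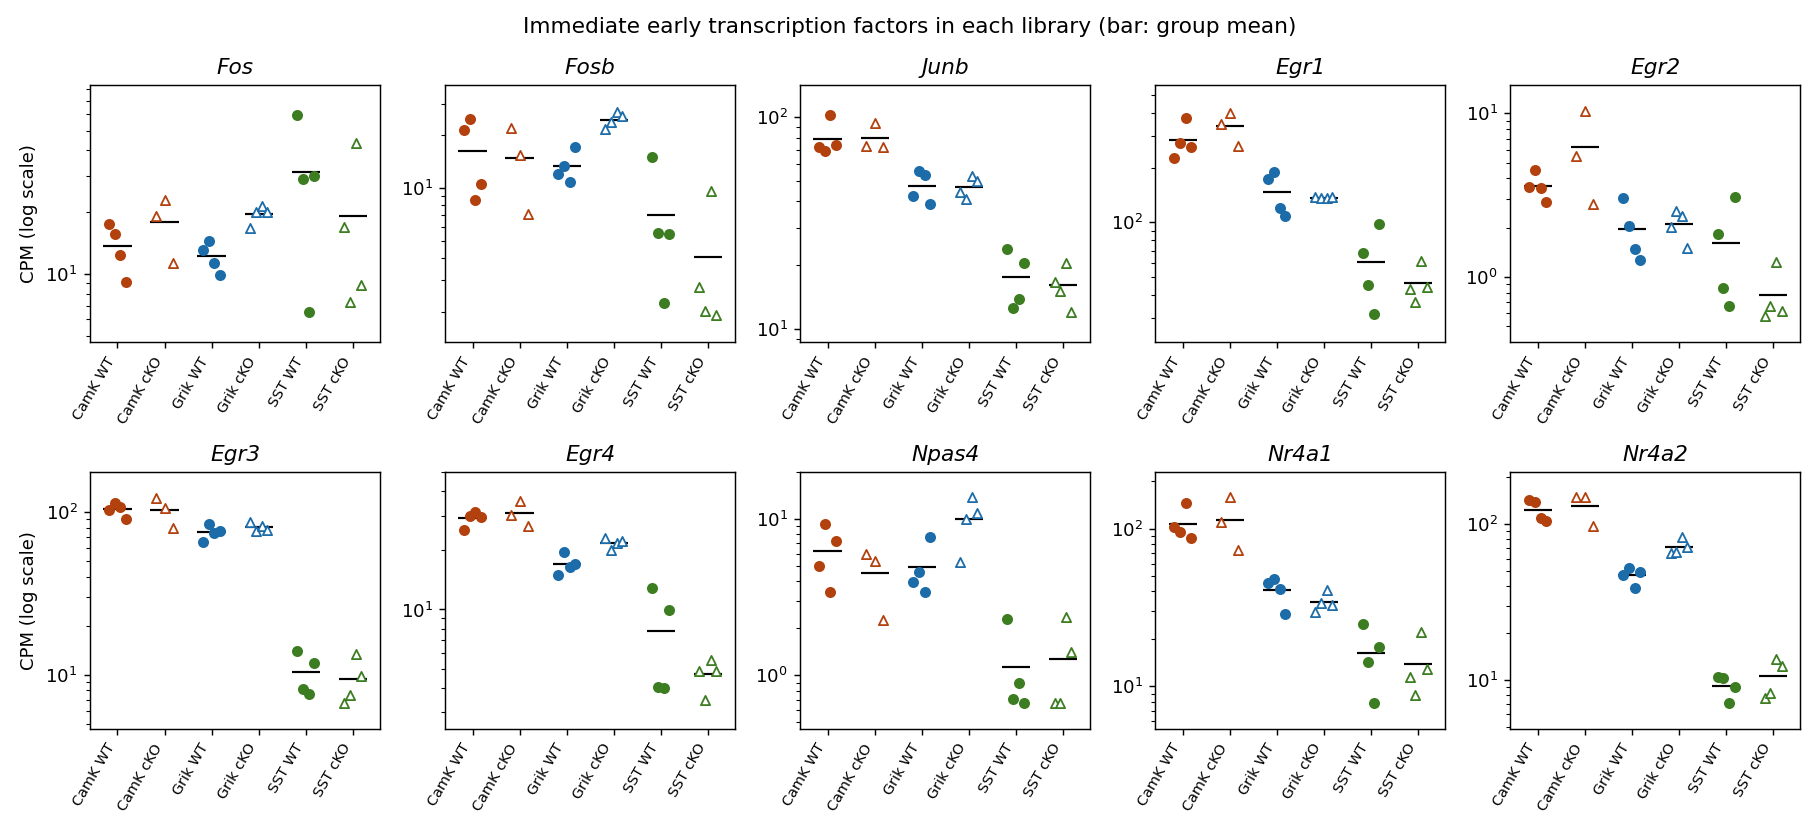
Each panel plots 1 gene: CPM on a log scale in every library (points, filled circles for WT and open triangles for libraries labelled cKO) with the group mean (bar), and panels have their own scales. The SST WT mean lies below the CamK WT and Grik WT means for 9 of the 10 genes, Fos being the exception with SST WT values from 6.51 to 59.7 CPM.

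Among the AP-1 genes, Fos (chromosome 12, 85473890 to 85477273, plus strand; positions here are on GRCm38, from GENCODE release M21) stood at 17.6, 15.6, 12.4 and 9.09 CPM in CamK WT replicates 2, 3, 4 and 5. It stood at 13.1, 14.5, 11.3 and 9.91 CPM in Grik WT replicates 3, 4, 5 and 6. In SST WT it reached 59.7, 29.1 and 30.1 CPM in replicates 1, 2 and 5 and 6.51 in replicate 3. The SST WT libraries thus held both the lowest and the highest wild-type values, and the groups overlapped. Grik WT lay below SST WT (log2 fold change -1.36, SE 0.54, edgeR adjusted p = 0.0406). DESeq2 called it too (-1.36, adjusted p = 0.0156). Where leaving out 1 library lost the call, the edgeR adjusted p ran from 0.0561 (without SST WT replicate 2, -1.40) to 0.2 (without SST WT replicate 1, -0.84), and it was kept without SST WT replicate 3. CamK WT against SST WT gave -1.20 (SE 0.54, edgeR adjusted p = 0.0653), and CamK WT against Grik WT gave 0.16 (SE 0.54, edgeR adjusted p = 0.84).

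Fosb (chromosome 7, 19302696 to 19310051, minus strand), whose truncated splice form deltaFosB is known to accumulate with repeated activity, stood at 21.2, 24.5, 8.59 and 10.5 CPM in CamK WT replicates 2, 3, 4 and 5. The 4 Grik WT libraries held 12, 13.3, 10.8 and 17.0 CPM. SST WT replicates 1, 2, 3 and 5 held 15.0, 5.58, 2.24 and 5.46 CPM. The CamK libraries split between about 9 to 11 and 21 to 25 CPM, and SST WT replicate 1 reached into the Grik range. No wild-type comparison of Fosb passed the threshold: CamK against SST gave 1.19 (SE 0.56, edgeR adjusted p = 0.0741) and Grik against SST 0.90 (SE 0.56, edgeR adjusted p = 0.179). Without SST WT replicate 1 both passed, at 1.87 (edgeR adjusted p = 0.00879) and 1.58 (edgeR adjusted p = 0.0233).

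Junb (chromosome 8, 84974484 to 84978718, minus strand), a JUN-family partner of the FOS proteins, was graded and did not overlap between populations. It ranged from 68.9 to 102 CPM in CamK WT, from 39.0 to 55.5 in Grik WT and from 12.6 to 23.8 in SST WT. The log2 fold changes were 0.74 for CamK over Grik (SE 0.19, edgeR adjusted p = 0.00344), 2.16 for CamK over SST (SE 0.20, edgeR adjusted p = 4.74e-09) and 1.42 for Grik over SST (SE 0.19, edgeR adjusted p = 1.83e-06). The call between CamK and Grik did not pass with the covariate. Exons of Prdx2 on the opposite strand cover 173 bases of Junb exons, so its level is uncertain without the strand setting.

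Egr1 (chromosome 18, 34859823 to 34864984, plus strand), also known as Zif268 and tied to lasting synaptic potentiation, had the highest mean per length of the members in every group. In SST WT and in the libraries labelled SST cKO its lead over Fos was smaller than the SD of either gene. Its values were 227, 272, 377 and 261 CPM in CamK WT replicates 2, 3, 4 and 5. They were 172, 188, 119 and 108 CPM in Grik WT replicates 3, 4, 5 and 6, and 68.2, 45.5, 31.3 and 97.8 CPM in SST WT replicates 1, 2, 3 and 5. The 3 populations did not overlap. CamK exceeded Grik by 0.95 on the log2 scale (SE 0.28, edgeR adjusted p = 0.0094), CamK exceeded SST by 2.23 (SE 0.29, edgeR adjusted p = 1.65e-06) and Grik exceeded SST by 1.28 (SE 0.28, edgeR adjusted p = 6.37e-04). The call between CamK and Grik was lost with the marker covariate, although the estimate, given with the markers below, was nearly as large.

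Egr3 (chromosome 14, 70077203 to 70082614, plus strand) separated pyramidal cells from interneurons most sharply within its family. CamK WT libraries ranged from 90.6 to 114 CPM, Grik WT from 64.9 to 84.0 and SST WT from 7.66 to 14. CamK exceeded SST by 3.31 (SE 0.21, edgeR adjusted p = 1.01e-11) and Grik exceeded SST by 2.84 (SE 0.20, edgeR adjusted p = 9.07e-11). CamK against Grik gave 0.47 (SE 0.19) and lay at the threshold, with an edgeR adjusted p of 0.0501 and a limma-voom adjusted p of 0.0106, although the values did not overlap.

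Egr4 (chromosome 6, 85511121 to 85513589, minus strand) stood at 25.5, 29.8, 31.4 and 29.8 CPM across CamK WT libraries and at 14.9, 19.6, 16.4 and 17.1 across Grik WT. In SST WT it held 12.9 and 9.97 CPM in replicates 1 and 5 and 4.05 and 3.99 in replicates 2 and 3. Its SST WT values therefore fell into a higher and a lower pair, both below every Grik WT library. The differences were 0.78 for CamK over Grik (SE 0.26, edgeR adjusted p = 0.0221), 1.91 for CamK over SST (SE 0.27, edgeR adjusted p = 3.94e-06) and 1.14 for Grik over SST (SE 0.27, edgeR adjusted p = 0.00108). The call between CamK and Grik was lost without CamK WT replicate 4 (0.74, edgeR adjusted p = 0.0523) and without Grik WT replicate 3 (0.72, 0.0602) or 5 (0.76, 0.0512), and with the marker covariate.

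Egr2 (chromosome 10, 67535475 to 67542188, plus strand), also known as Krox20 and as a regulator of myelinating Schwann cells, was the least abundant EGR gene. It stood at 3.52, 4.49, 3.49 and 2.89 CPM in CamK WT. Grik WT libraries held 3.05, 2.05, 1.48 and 1.27 CPM and SST WT libraries 1.84, 0.861, 0.66 and 3.06. SST WT replicate 5 was as high as the highest Grik WT library. Only CamK over SST passed, at 1.16 (SE 0.42, edgeR adjusted p = 0.0214), and it was lost without CamK WT replicate 3 (1.04, edgeR adjusted p = 0.0561), SST WT replicate 2 (0.95, 0.0705) or SST WT replicate 3 (0.90, 0.0689), and with the marker covariate (1.59, 0.129). CamK against Grik gave 0.88 (SE 0.42, edgeR adjusted p = 0.0993).

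Npas4 (chromosome 19, 4984355 to 4990316, minus strand), induced by calcium entry and known to shape inhibitory synapses onto active neurons, was scarce. It stood at 5.04, 9.24, 3.42 and 7.21 CPM across CamK WT libraries and at 3.98, 4.55, 3.43 and 7.65 across Grik WT. In SST WT it held 2.29, 0.702, 0.894 and 0.665 CPM, the last being 66 reads. The pyramidal groups overlapped with each other and both lay above every SST WT library. CamK exceeded SST by 2.44 (SE 0.50, edgeR adjusted p = 3.08e-04) and Grik exceeded SST by 2.09 (SE 0.50, edgeR adjusted p = 0.00126), while CamK against Grik gave 0.34 (SE 0.46, edgeR adjusted p = 0.591).

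The nuclear receptor genes gave the largest differences between CamK and Grik among the members. Nr4a1 (chromosome 15, 101254269 to 101274795, plus strand), also called Nur77, stood at 103, 95, 145 and 87.5 CPM in CamK WT. Grik WT libraries held 45.0, 47.7, 41.2 and 28.6 CPM and SST WT libraries 24.8, 14.2, 7.84 and 17.8. Nr4a2 (chromosome 2, 57106830 to 57124003, minus strand), also called Nurr1 and known for its role in dopamine neurons, stood at 144, 139, 109 and 105 CPM in CamK WT. Grik WT libraries held 47.5, 52.1, 38.8 and 49.2 CPM and SST WT libraries 10.5, 10.3, 7.08 and 8.94. Neither gene overlapped between populations. Both were higher in CamK than in Grik by 1.41, for Nr4a1 with SE 0.32 (edgeR adjusted p = 0.0017) and for Nr4a2 with SE 0.18 (edgeR adjusted p = 1.65e-06). Against SST, Nr4a1 was higher by 2.73 in CamK (SE 0.34, edgeR adjusted p = 1.09e-06) and by 1.33 in Grik (SE 0.33, edgeR adjusted p = 0.00177). Nr4a2 was higher by 3.75 in CamK (SE 0.20, edgeR adjusted p = 4.18e-13) and by 2.35 in Grik (SE 0.19, edgeR adjusted p = 4.46e-10).

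Read against all genes, the counts differ from one comparison to the next. Between CamK WT and Grik WT, 5 of 10 members were called higher (Junb, Egr1, Egr4, Nr4a1 and Nr4a2) and 0 lower, where 20.9% of all genes were called higher and 21.1% lower. Between CamK WT and SST WT, 8 were called higher and 0 lower, where 29.5% and 30.5% of all genes were. Between Grik WT and SST WT, 7 were called higher and 1, Fos, lower, where 28.1% and 29.2% of all genes were. The members' median log2 fold changes were 0.76, 2.19 and 1.30 in these comparisons, beside 0.008, -0.021 and -0.026 over all genes tested. The comparisons share groups, so they are not independent of each other. Without SST WT replicate 2, the library low in somatostatin, 7 members were called in CamK against SST and 7 in Grik against SST, all higher in the pyramidal cells.

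Markers of other cells moved with these differences. Of 20 astrocyte, oligodendrocyte, microglial and endothelial markers, 14 were lower in CamK WT than in Grik WT and 0 were higher. Against SST WT, 17 were lower and 0 higher in CamK, and 6 were lower and 3 higher in Grik. All 5 endothelial markers were lower in both than in SST, with medians of -4.21 and -2.58, and their part in the higher Fos level of SST was not tested. The summed oligodendrocyte markers stood at 144 to 219 CPM in CamK WT, at 684 to 924 for Grik WT, and for SST WT at 296 to 672, the astrocyte markers at 9.01 to 21, 50.9 to 60.9 and 53.6 to 105. No marker was at 0 in any group mean. With a score of these markers as a covariate, 2 of the 5 members called between CamK WT and Grik WT, Nr4a1 and Nr4a2, still passed. Junb then gave 0.49 (edgeR adjusted p = 0.279), Egr1 0.89 (0.185) and Egr4 0.64 (0.327). The summed oligodendrocyte and astrocyte markers did not overlap between CamK WT and Grik WT. Such a covariate and the population can therefore not be fully told apart, and a lost call does not decide between them. The 3 excitatory markers summed to 745 to 878 CPM in SST WT, 5207 to 5689 in CamK WT and 6567 to 7603 in Grik WT. As a share of its CamK WT mean, the SST WT mean of Slc17a7 was 8.72%, of Camk2a 17.9% and of Neurod6 4.82%, beside 7.40% for Nr4a2, 10.1% for Egr3, 15.0% for Nr4a1 and 18.3% for Npas4. The other members stood at 21.4 to 229%. All 4 dentate granule cell markers were higher in CamK WT and in Grik WT than in SST WT, with medians of 2.85 and 2.64, and 1 of 4, C1ql2, was higher in CamK WT than in Grik WT. They summed to 104 to 272 CPM in CamK WT, to 146 to 158 for Grik WT, and for SST WT to 28.2 to 40.1. The part of RNA from other excitatory cells in these values of the members was not tested.

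**Figure D2:**
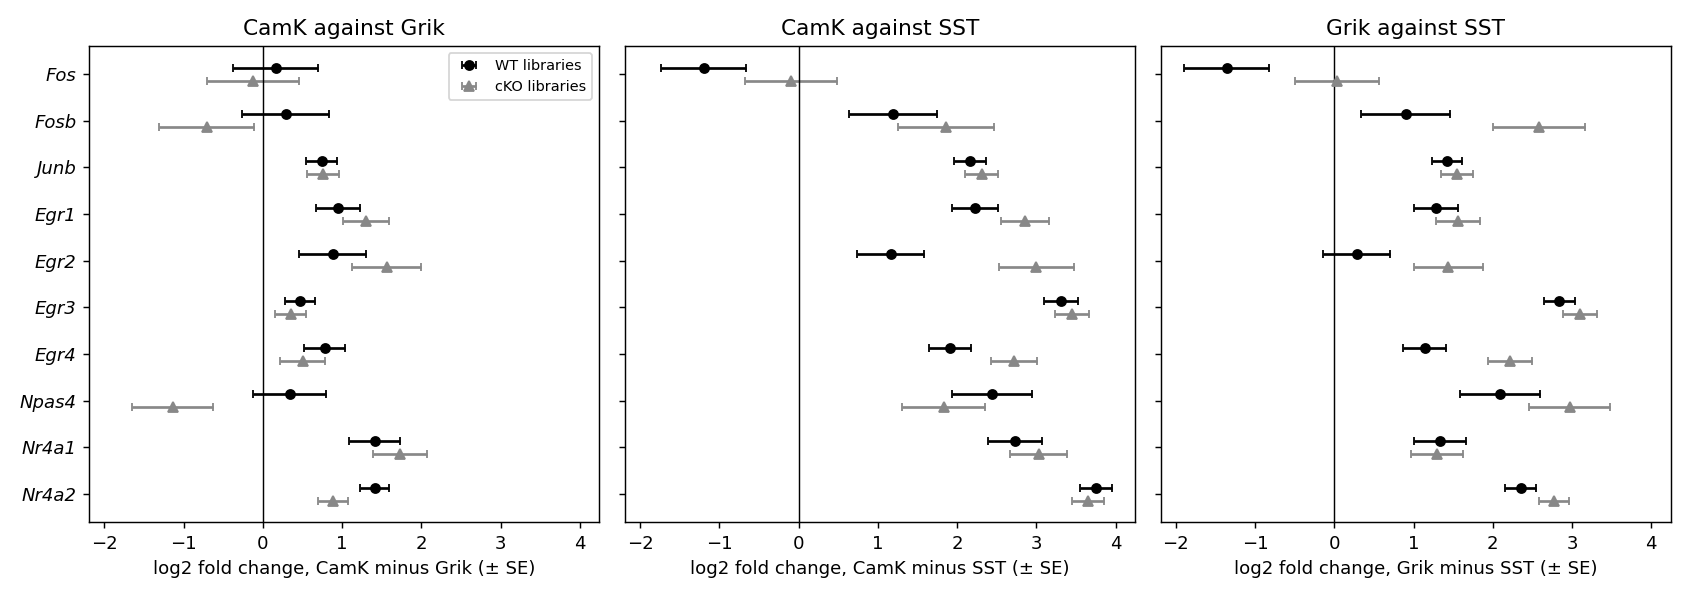
Log2 fold changes of the 10 genes between populations with their standard errors (bars), in WT libraries (black circles) and in libraries labelled cKO (grey triangles), with 1 panel per pair of populations. In CamK against SST, Nr4a2 and Egr3 lie farthest right at 3.31 to 3.75, and against SST Fos lies between -1.36 and 0.03.

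The libraries labelled cKO gave a separate set of population comparisons. Between CamK and Grik, 5 of 10 members were called higher in CamK (Junb, Egr1, Egr2, Nr4a1 and Nr4a2), where 17.4% of all genes were. Fitting these populations alone and limma-voom each gave 8 calls, adding Egr3 and Egr4 as higher and Npas4 as lower in CamK (-1.14 with edgeR adjusted p = 0.0495 and -1.22 with limma-voom adjusted p = 0.008). With the marker covariate Junb was lost (0.60, edgeR adjusted p = 0.0993). Between CamK and SST, 9 members were called higher, where 26.9% of all genes were, and between Grik and SST also 9, where 27.9% of all genes were. The member without a call against SST was Fos in both cases, at -0.10 (SE 0.58, edgeR adjusted p = 0.895) and 0.03 (SE 0.53, edgeR adjusted p = 0.97). Fosb, uncalled in WT, was higher in the libraries labelled Grik cKO than in those labelled SST cKO by 2.58 (SE 0.58, edgeR adjusted p = 9.51e-04). Its values were 21.5, 23.5, 26.8 and 25.6 CPM in the former and 2.76, 2.03, 9.58 and 1.92 in the latter. Its call between CamK and SST, 1.86 (SE 0.60, edgeR adjusted p = 0.0135), was lost without replicate 4 of the libraries labelled CamK cKO (1.47, edgeR adjusted p = 0.0749) and with the marker covariate (2.79, 0.0504). Nr4a2 again gave the largest difference between CamK and SST, 3.65 (SE 0.20, edgeR adjusted p = 1.45e-12), followed by Egr3 at 3.45 (SE 0.22, edgeR adjusted p = 1.31e-11). The Egr2 call between CamK and Grik, 1.56 (SE 0.44, edgeR adjusted p = 0.00821), rested on replicate 5 of the libraries labelled CamK cKO, at 10.3 CPM beside 5.46 and 2.80, and was 0.98 without it (edgeR adjusted p = 0.106).

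Levels between genes were compared as CPM per kilobase of exon. In CamK WT, Egr1 led with 63.3 ± 14.4 CPM per kilobase (SD, n = 4), followed by Junb at 34.4 ± 6.66, Nr4a1 at 30.7 ± 7.38 and Nr4a2 at 30.6 ± 4.97, whose means differed by less than the smallest of their SDs. Egr3 at 23.5 ± 2.23, Egr4 at 13.6 ± 1.18, Fos at 5.82 ± 1.58 and Fosb at 2.60 ± 1.26 came next, and Npas4 at 1.51 ± 0.613 and Egr2 at 1.06 ± 0.194 were lowest and differed by less than the SD of Npas4 but by more than that of Egr2. In Grik WT the order began with Egr1 at 32.8 ± 8.77, Junb at 20.6 ± 3.50 and Egr3 at 17.0 ± 1.79, with Nr4a1 and Nr4a2 both at 11.6. In SST WT, Fos at 13.3 ± 9.28 stood beside Egr1 at 13.5 ± 6.47, above Junb at 7.68 ± 2.33 and Nr4a1 at 4.61 ± 2.02, while Egr3 at 2.37 ± 0.688 and Nr4a2 at 2.27 ± 0.388 differed by less than either SD. Fos was thus ranked 7 in both pyramidal groups and 2 in SST WT.

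Between the genotypes, no member passed in any population in the edgeR fit of all 6 groups. In CamK, 0 of 10 members were called in this edgeR fit, where 0.0106% of all genes were, and 0 had an unadjusted p under 0.05, where 7.05% of all genes did. In Grik, 0 were called, where 0.0106% of all genes were, and 2 (Npas4 and Nr4a2) had an unadjusted p under 0.05, where 4.88% of all genes did. In SST, 0 were called, where again 0.0106% of all genes were, and 2 (Egr2 and Egr4) had an unadjusted p under 0.05, where 5.85% of all genes did. DESeq2 called 0 members in each population, and limma-voom called 0, 1 and 0 in CamK, Grik and SST. Of the 20 markers of glia and vessels, edgeR called 0 in each population, with 4, 0 and 1 at an unadjusted p under 0.05. In the libraries labelled SST cKO, all 5 oligodendrocyte and all 5 microglial markers had estimates above 0 (medians 0.76 and 0.78), and 8 of 10 heat shock genes had estimates below 0 (median -0.16). In those labelled CamK cKO all 5 endothelial markers had estimates above 0 (median 1.36), with sums of 1.79 to 4.48 CPM against 0.886 to 1.47 in WT. All 5 astrocyte and all 5 oligodendrocyte markers there were also above 0 (medians 0.57 and 0.59), and 3 of 5 microglial markers (median 0.05). In SST all 5 astrocyte markers (median 0.23) and 2 of 5 endothelial markers (median -0.08) had estimates above 0. In Grik the medians of the 4 marker lists were 0.16 to 0.25. With the marker score as a covariate, edgeR also called 0 members in each population, and the part of the heat shock genes was not tested.

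Nr4a2 in Grik had the lowest unadjusted edgeR p of the 30 genotype values, while the lowest adjusted p was that of Egr2 in CamK (0.79, SE 0.44, edgeR adjusted p = 0.736). The values of Nr4a2 were 65.5, 66.6, 83.3 and 71.9 CPM in the libraries labelled cKO and 47.5, 52.1, 38.8 and 49.2 in WT. All 4 libraries labelled cKO lay above all 4 WT libraries (log2 fold change 0.62, SE 0.18, edgeR adjusted p = 0.797). The limma-voom adjusted p was 0.0488. In CamK the same gene gave 0.09 (95% interval -0.32 to 0.49) and in SST 0.19 (-0.19 to 0.58).

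Values without overlap between the genotypes were found for 4 members in Grik, Fos, Fosb, Egr4 and Nr4a2, all higher in the libraries labelled cKO, where 4.59% of all genes did not overlap. Fos stood at 16.7, 19.9, 21.5 and 20 CPM in the libraries labelled Grik cKO, against a highest WT value of 14.5, and gave 0.68 (95% interval -0.46 to 1.82). Fosb, at 21.5 to 26.8 CPM against 10.8 to 17.0, gave 0.88 (-0.28 to 2.04; edgeR adjusted p = 0.992). When the Grik libraries were fitted alone, Fosb passed with an edgeR adjusted p of 0.033. The 95% intervals, here and in the other populations, use a spread estimated for each gene over all 6 groups. In the Grik libraries labelled cKO and WT, the SD of log2 CPM was 0.16 and 0.24 for Fos, and 0.14 and 0.28 for Fosb. In the SST libraries, in the same order, it was 1.16 and 1.35 for Fos, and 1.08 and 1.12 for Fosb. Egr4, at 20.1 to 23 CPM against 14.9 to 19.6, gave 0.36 (-0.19 to 0.91). Npas4 overlapped in 1 library labelled cKO, with 5.29, 10, 13.8 and 10.9 CPM against 3.98, 4.55, 3.43 and 7.65, and gave 1.03 (0.04 to 2.01; edgeR adjusted p = 0.992). The other 5 members in Grik ranged from -0.25 to 0.11. Since Khdrbs3 went against the label in Grik, these directions are by label alone.

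In SST and CamK, 0 members were without overlap, where 2.70% and 6.75% of all genes did not overlap. Egr2 in SST gave -1.06 (95% interval -1.98 to -0.14; edgeR adjusted p = 0.833), from 0.579, 0.665, 1.23 and 0.622 CPM in the libraries labelled cKO and 1.84, 0.861, 0.66 and 3.06 in WT. Egr4 in SST gave -0.72 (-1.29 to -0.15; edgeR adjusted p = 0.833), with 3.47 to 5.50 CPM against 3.99 to 12.9. For both genes WT replicates 1 and 5 lay above every library labelled cKO, and WT replicates 2 and 3 lay within their range. In CamK the largest estimate was Egr2 at 0.79 (-0.14 to 1.71), while Junb gave 0.01 (-0.42 to 0.44). Fos gave 0.38 (-0.84 to 1.60) and Fosb -0.13 (-1.38 to 1.12) in CamK, so a rise of 1 log2 unit was within the intervals of both and a fall of 1 within that of Fosb.

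**Figure D3:**
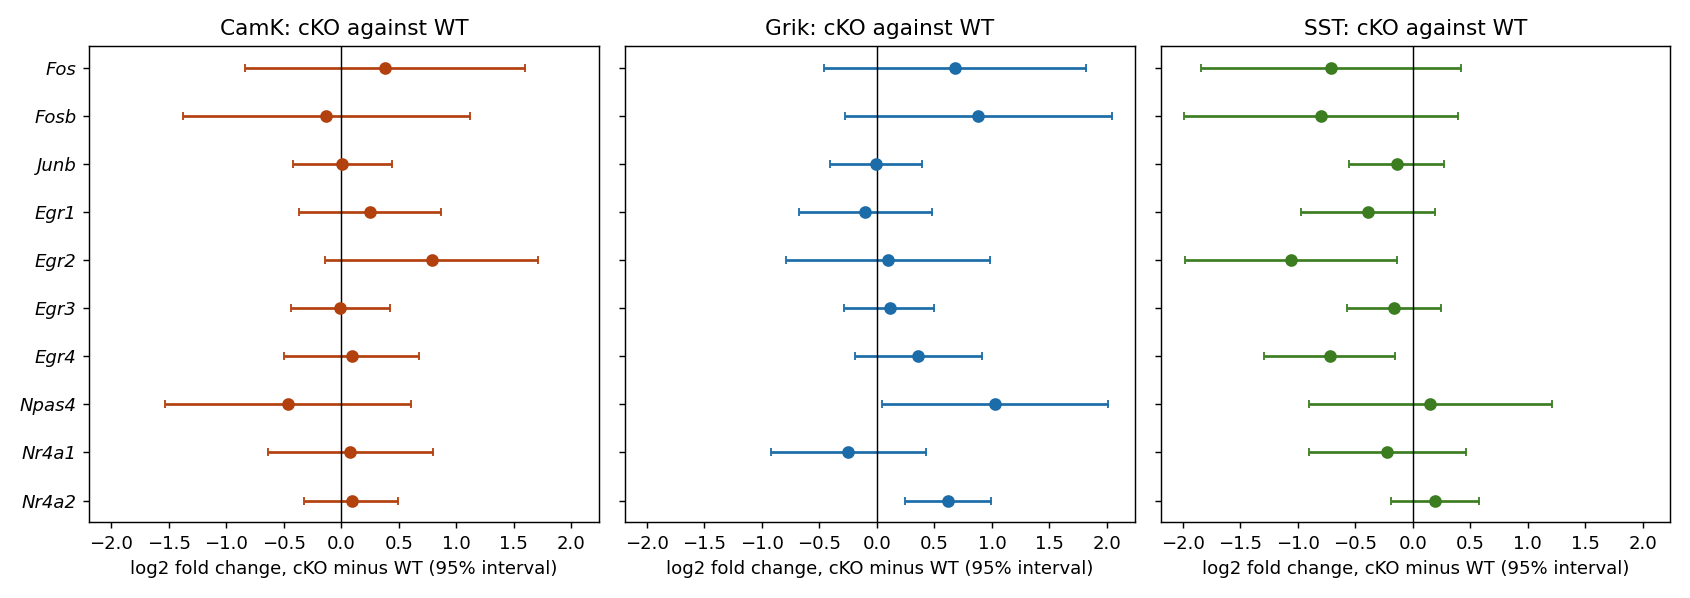
Log2 fold change of each gene by label, cKO minus WT, in 1 panel per population (points) with 95% intervals (bars). Intervals exclude 0 for Npas4 and Nr4a2 in Grik and for Egr2 and Egr4 in SST, and no gene passed after adjustment in the edgeR fit of all 6 groups.

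The differences of the genotype effects between populations were tested as interaction terms. In edgeR, 0 of 10 members were called for CamK minus Grik, 0 for CamK minus SST and 0 for Grik minus SST, where 0.00531%, 0% and 0.0106% of all genes were called. DESeq2 and limma-voom also called 0 members in each. At an unadjusted p under 0.05 there were 1 (Npas4), 2 (Egr2 and Egr4) and 2 (Fosb and Egr4), where 6.50%, 7.85% and 3.86% of all genes were. Since Khdrbs3 went against the label in Grik, terms that use Grik are by label alone. Effects by label were -0.46 in CamK and 1.03 in Grik for Npas4. In Grik and SST they were 0.88 and -0.80 for Fosb, and 0.36 and -0.72 for Egr4. With the Grik labels exchanged these terms would be smaller. Those of Nr4a2 (0.09, 0.62 and 0.19 in CamK, Grik and SST) would be larger. The largest estimate was Egr2 for CamK minus SST, 1.84 (SE 0.62, edgeR adjusted p = 0.597).

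Replicate libraries of 1 group differed more in these genes than in most others. The standard deviation (SD) of log2 CPM within groups, pooled over the 6 groups with 17 degrees of freedom, was 0.80 for Fos, 0.79 for Fosb, 0.70 for Npas4 and 0.64 for Egr2. It was 0.47 for Nr4a1, 0.40 for Egr1 and Egr4, 0.29 for Junb and Egr3 and 0.28 for Nr4a2. The median of the 10469 genes with a mean of at least 5 CPM was 0.13, and 93.3 to 99.6% of those genes had a lower SD than a given member. Over all 18823 genes tested, which include many of low count and wide spread, the median was 0.21 and the share with a lower SD was 58.8 to 92.5%, lowest for Nr4a2, Junb and Egr3. Egr2 and Npas4 averaged 2.55 and 4.69 CPM, below that minimum, at levels where the spread of all genes was also wider.

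**Figure D4:**
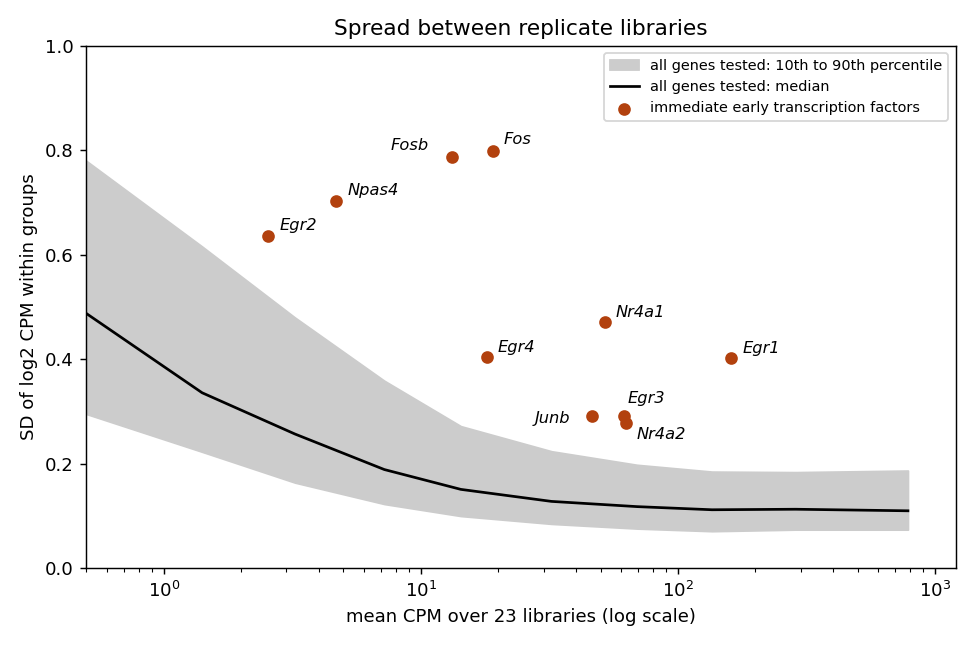
Within-group SD of log2 CPM against mean CPM over 23 libraries (log scale) for the 10 members (points), with the median (line) and the range from percentile 10 to 90 (band) of all genes tested. All 10 points lie above the band at their own level of expression.

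The spread was not the same in every group. The median SD over the 10 members was 0.76 in SST WT, 0.46 in the libraries labelled SST cKO and 0.44 in those labelled CamK cKO, then 0.28 in CamK WT and 0.26 for Grik WT, with 0.16 in the libraries labelled Grik cKO. Over genes with at least 5 CPM the medians were 0.08 to 0.14. Fos varied 9.17-fold within SST WT and 5.98-fold within the libraries labelled SST cKO, but 1.29-fold within those labelled Grik cKO. Egr1 in the libraries labelled Grik cKO was nearly constant, at 138, 136, 137 and 138 CPM, a coefficient of variation of 0.681%, beside 26.7% in Grik WT. This was the lowest such value of any member in any group. At 11771 to 12108 Egr1 reads per library, counting noise alone is expected to be at least as wide.

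Members were compared for how they deviated together from 1 library to the next. Over the 45 pairs of members, the median Pearson correlation of their deviations was 0.73 in the 8 SST libraries (45 pairs above 0), 0.60 in the 7 CamK libraries (41 above 0) and 0.20 in the 8 Grik libraries (28 above 0), as a description; the difference between populations was not tested. In 3 libraries all 10 members were above their group's mean log2 CPM: SST WT replicate 1, and replicate 5 of the libraries labelled SST cKO and CamK cKO. In 3 libraries 0 members were above it: SST WT replicate 3, SST cKO replicate 4 and CamK cKO replicate 6. The mean deviation over the 10 members was 0.75 in SST WT replicate 1, 0.77 in SST cKO replicate 5 and 0.35 in CamK cKO replicate 5, and -0.79, -0.44 and -0.53 in the other 3. In Grik the mean deviations ran from -0.15 to 0.18. The groups' own 3 or 4 libraries set each mean, so deviations within a group sum to 0.

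**Figure D5:**
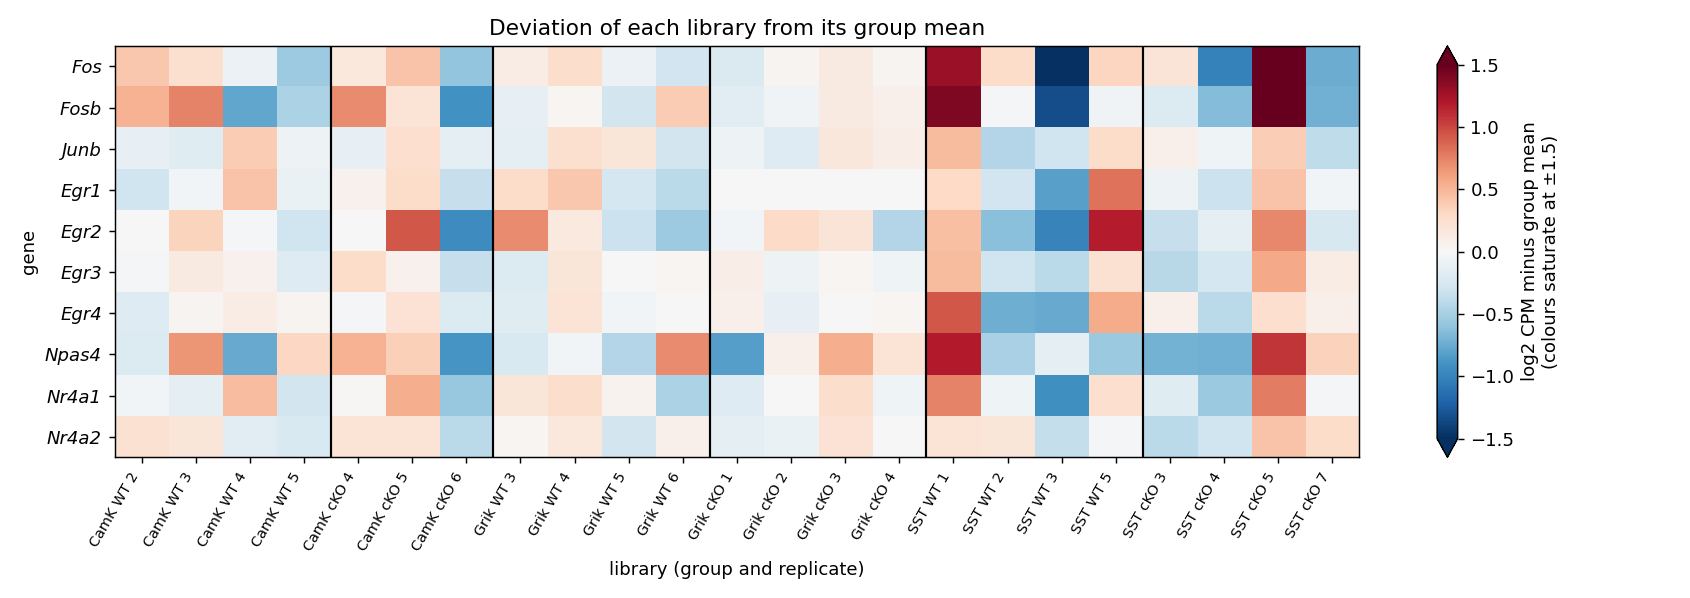
Deviation of log2 CPM from the group mean for each gene (rows) in each of the 23 libraries (columns, lines between groups), red above and blue below the mean, with colours saturating at ±1.5. SST WT replicate 1 and SST cKO replicate 5 are red throughout and SST WT replicate 3 is blue throughout, while the mean deviations of the Grik columns lie between -0.15 and 0.18.

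Some other measures moved with the members and some did not. Over the 23 libraries, the members' mean deviation had a Pearson correlation of 0.70 with that of the heat shock genes, 0.46 with log2 read depth, -0.40 with the percentage of reads outside genes, 0.21 with that of the glial and vessel markers and 0.05 with the mitochondrial percentage, as a description. Heat shock genes, a list of 10 that respond to protein stress, deviated by 0.22, 0.18 and 0.18 on average in the 3 libraries where all members were high, and by -0.12, -0.01 and -0.06 in SST WT replicate 3, SST cKO replicate 4 and CamK cKO replicate 6. The 20 markers of glia and vessels deviated by -0.43, 0.48 and 0.49 in the high libraries and by -0.01, -0.82 and -0.15 in the low ones. SST WT replicate 1 had the most reads, 112993538, and SST cKO replicate 4 the fewest, 87612006. Somatostatin did not follow the members in every SST library. It stood at 1720 and 2018 CPM in the 2 high libraries and at 554 and 1080 in the 2 low ones, but its highest value, 2125, was in SST cKO replicate 3, with a mean member deviation of -0.20. Its lowest values by genotype, 159 in SST WT replicate 2 and 1010 in SST cKO replicate 7, came with deviations of -0.25 and -0.13, and 1557 in SST WT replicate 5 with 0.30. The part of these measures in the members' levels was not tested.

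The genes most like the members were ranked by the Pearson correlation of their within-group deviations with the members' mean deviation over the 23 libraries, among 12991 other genes with a mean of at least 1 CPM. The 5 highest were Fosl2 (r = 0.93), Nfil3 (0.84), 1700016P03Rik (0.83), Dnaja4 (0.80) and Nr4a3 (0.80). Without SST WT replicate 3, the library with the largest mean deviation, they gave 0.91, 0.79, 0.79, 0.78 and 0.73. The ranking did not hold in each population: in Grik, r was 0.61, 0.55, 0.28, -0.07 and 0.64 in the same order, in CamK 0.91, 0.51, 0.86, 0.67 and 0.67, and in SST 0.95, 0.96, 0.88, 0.92 and 0.84. All points share the scaling of their library, and the SST libraries carry most of the range, so these values are descriptions.

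Genes that surround the members in the pathway were taken from 4 further lists. Among 7 partners and corepressors, 3 were higher and 0 lower in CamK WT than in Grik WT, where 20.9% and 21.1% of all genes were. Against SST WT, 4 were higher and 2 lower in CamK WT, where 29.5% and 30.5% of all genes were. In Grik WT, 4 were higher and 2 lower than in SST WT, where 28.1% and 29.2% of all genes were. The EGR corepressor gene Nab2 was higher than in SST by 1.47 in CamK (SE 0.13, edgeR adjusted p = 3.38e-10) and by 1.64 in Grik (SE 0.13, edgeR adjusted p = 4.92e-11). Partners within a family did not move one way. Arnt2, whose product pairs with NPAS4, was lower than in SST, by -0.97 in CamK (SE 0.08, edgeR adjusted p = 2.01e-10) and -2.07 in Grik (SE 0.08, edgeR adjusted p = 2.05e-16). Rxra, a partner of NR4A1 and NR4A2, was lower than in SST, by -2.08 in CamK (SE 0.13, edgeR adjusted p = 5.29e-13) and -2.64 in Grik (SE 0.13, edgeR adjusted p = 7.59e-15). The related Arnt, Rxrb and Rxrg, named after their values were seen, were called higher than in SST in both populations. In CamK and Grik, Arnt was higher by 0.56 and 0.72, Rxrb by 0.66 and 0.41, and Rxrg by 0.91 and 1.24.

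Of 19 upstream factors, 7 were higher and 5 lower in CamK WT than in Grik WT, where 20.9% and 21.1% of all genes were. Against SST WT, 13 were higher and 2 lower in CamK, where 29.5% and 30.5% of all genes were. In Grik, 13 were higher and 3 lower than in SST WT, where 28.1% and 29.2% of all genes were. Mef2c, an activity-regulated MADS-box factor, gave the largest difference between the pyramidal populations, 1.88 (SE 0.18, edgeR adjusted p = 2.32e-08), and was lower in Grik than in SST by -2.07 (SE 0.18, edgeR adjusted p = 1.66e-09). Srf, the factor that binds CArG boxes, was higher in CamK than in Grik by 0.58 (SE 0.09, edgeR adjusted p = 9.78e-06). Camk4, a kinase that phosphorylates CREB, was higher than in SST by 1.61 in CamK (SE 0.10, edgeR adjusted p = 3.67e-13) and 2.13 in Grik (SE 0.10, edgeR adjusted p = 2.2e-15).

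Of 16 other inducible transcription regulators, 5 were higher and 4 lower in CamK WT than in Grik WT, where 20.9% and 21.1% of all genes were. Against SST, 10 were higher and 2 lower in CamK, where 29.5% and 30.5% of all genes were. In Grik, 8 were higher and 3 lower than in SST, where 28.1% and 29.2% of all genes were. Bhlhe40, a circadian repressor gene, was higher in CamK than in Grik by 2.02 (SE 0.10, edgeR adjusted p = 8.21e-14). Nr4a3, the remaining NR4A gene, differed from Nr4a1 and Nr4a2 in its order. It was lower in CamK than in Grik, by -1.27 (SE 0.24, edgeR adjusted p = 3.15e-04), and higher than in SST by 2.46 in CamK (SE 0.26, edgeR adjusted p = 7.08e-08) and 3.73 in Grik (SE 0.27, edgeR adjusted p = 3.16e-10). Of 24 effector genes induced by activity, 5 were higher and 4 lower in CamK WT than in Grik WT, near the 20.9% and 21.1% of all genes. Against SST, 14 were higher and 9 lower in CamK, where 29.5% and 30.5% of all genes were. In Grik, 14 were higher and 6 lower than in SST, where 28.1% and 29.2% of all genes were. Bdnf, a secreted neurotrophin gene, was higher than in SST by 3.79 in CamK (SE 0.21, edgeR adjusted p = 7.65e-13) and 4.50 in Grik (SE 0.21, edgeR adjusted p = 5.89e-14). Ptgs2, which encodes the inducible cyclooxygenase, was lower in CamK than in Grik by -2.39 (SE 0.22, edgeR adjusted p = 1.33e-08). Between the genotypes edgeR called 0 genes of these 4 lists in each population, where 0.0106% of all genes were called. In CamK, Grik and SST, 6, 7 and 3 of the 66 had an unadjusted p under 0.05, where 7.05%, 4.88% and 5.85% of all genes did.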

How the data were processed

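Whole-number counts of reads per Ensembl gene were deposited by the authors for 23 libraries of mouse hippocampal neurons. The submitters' processing notes name Trimmomatic, STAR and GRCm38. No source used here gives the annotation release, the counter, the strand setting or any filter. Summary rows that name no gene (12.4 to 18.4% of reads) were left out. All per-sample columns were matched to samples by name, leaving 0 unused.

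The filterByExpr function, given the 6 groups, kept 18823 of 45706 genes, which were fitted in 1 model with TMM scaling in edgeR 4.0.16 (R 4.3.3), by the robust quasi-likelihood test with 17 residual degrees of freedom. P-values were two-sided and Benjamini-Hochberg adjusted over all genes tested, with a threshold of 0.05. Standard errors were derived from the F statistic, and 95% intervals from them. Log2 CPM used a prior count of 2. Symbols, positions and exonic lengths came from GENCODE M21, which matched 45143 gene IDs, and promoters from RefSeq. The test was checked on simulated counts.

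All 10 members were named, with at most 3 called genes per other list and comparison by absolute log2 fold change (mean of at least 1 CPM) and the 5 genes most like the members. Fewer list genes are printed than this rule allows. Members and lists were chosen with earlier results of these data known. Alternatives were another scaling, 2 other filters, DESeq2 1.42.0, limma 3.58.1 (voom with sample weights), the compared populations alone, a replicate block, a non-neuronal marker covariate and leaving out each library.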

Additional observations from a re-analysis of the deposited data

Results flagged for a closer look

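In 4 of 50 sets of 4 replicate values for a member, 1 library stood apart from the others by a gap of more than 0.829 of the whole range (Dixon's criterion), where chance gives about 1 in 20, or 2.5. Fosb stood at 9.58 CPM in SST cKO replicate 5, beside 1.92 to 2.76 in the other libraries of its group. Egr2 stood at 1.23 CPM in the same library, beside 0.579 to 0.665. Npas4 stood at 2.29 CPM in SST WT replicate 1, beside 0.665 to 0.894. Junb stood at 102 CPM in CamK WT replicate 4, beside 68.9 to 73.9.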

How the results depend on the processing

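For all members together, no called value changed direction under an alternative. Of 2110 member values under alternatives, 91 changed sign between 2 uncalled values and were counted as the same. Leaving out 1 library gave 1128 values on the same side of the threshold, 7 newly called and 15 lost, and the other alternatives gave 930, 18 and 12. Between the libraries labelled Grik cKO and those labelled Grik WT, the count called went from 0 to 1 with the compared populations alone (Fosb 0.87, adjusted p = 0.033 in edgeR). It also went to 1 in limma-voom (Nr4a2 0.63, adjusted p = 0.0488). Between CamK WT and Grik WT it went from 5 to 2 with the non-neuronal score as a covariate. Between the libraries labelled CamK cKO and Grik cKO it went from 5 to 8 with the compared populations alone and to 8 in limma-voom, in both with 7 higher and Npas4 lower in CamK. The cause was not tested. Leaving out single libraries gave 4 to 6 calls for CamK WT against Grik WT, 7 to 9 for CamK WT against SST WT and 7 to 8 for Grik WT against SST WT. It gave 4 to 5, 8 to 9 and 9 to 9 in the same order in the libraries labelled cKO, and 0 to 0 for each genotype comparison and interaction. Among genes with a mean of at least 5 CPM, the median share with a lower spread than a member was 98% and went to 96.9% without SST WT replicate 3.

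Replicate numbers were not shown to pair the libraries: only 2 numbers are shared between the genotypes of a population, and deviations of same-numbered libraries correlated at 0.05 to 0.17 for CamK, at -0.33 to -0.09 for Grik, and for SST at -0.21 to 0.31. With a replicate block, the counts were 0 in each genotype comparison and interaction, 5, 8 and 7 between WT populations and 5, 8 and 9 between those labelled cKO. The block lost Fos in Grik WT against SST WT (-0.66, edgeR adjusted p = 0.433) and Fosb in CamK cKO against SST cKO (1.75, edgeR adjusted p = 0.0665).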

Other observations

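The ratio of Fos to Fosb, both per length of exon, separated SST from the pyramidal populations, a description chosen after the values were seen and not tested. It was 7.70 to 14.6 in the 4 SST WT libraries (median 12.2) and 9.54 to 16.2 in the 4 labelled SST cKO (median 12.1). It was 1.69 to 3.84 in CamK WT, 2.31 to 4.22 in the libraries labelled CamK cKO, 1.55 to 2.89 in Grik WT and 2.06 to 2.25 in those labelled Grik cKO.

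Heat shock genes also differed between the wild-type populations. Of 10, 7 were lower and 0 higher in CamK than in Grik, where 21.1% and 20.9% of all genes were. Against SST, 3 were higher and 7 lower in CamK, where 29.5% and 30.5% of all genes were. In Grik, 3 were higher and 3 lower than in SST, near the 28.1% and 29.2% of all genes. Hspa1b, which encodes an inducible HSP70 chaperone, was lower in CamK than in Grik by -1.04 (SE 0.19, edgeR adjusted p = 8.07e-05), and higher in Grik than in SST by 2.82 (SE 0.20, edgeR adjusted p = 1.37e-11). Reads of Hspa1b and its near-identical copy Hspa1a may have been split between them, so both levels are uncertain.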
